A study of Mus musculus with 2 samples.

Results

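Microglia, the resident macrophages of the retina, were followed as single droplets in mouse retina with and without light damage. A droplet was counted as microglia when it held at least 1500 unique molecular identifiers (UMIs, each standing for 1 captured RNA molecule) with under 10% of them mitochondrial, and at least 5 UMIs of C1qa, C1qb, C1qc, Tyrobp, Cx3cr1 and Ctss from at least 2 of these 6 genes. Droplets with at least 10 UMIs over the pigment epithelium genes Rpe65, Rgr and Ttr were left out. This gave 54 microglia among 9685 droplets that passed the filters on UMIs and mitochondrial share. They were 12 of 3715 control droplets (0.323%, 95% exact binomial interval 0.167 to 0.564) and 42 of 5970 light damage droplets (0.704%, 0.507 to 0.950). Since the droplets were chosen by these 6 genes, neither their number nor the level of these genes is a finding.

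Both groups were 6 to 9 week old mice of both sexes with both Tgfbr2 alleles floxed, functionally wild type and labelled WT, on a Balb-C/CD1 background and homozygous for the leucine variant of RPE65. All mice spent 18 h in the dark. The light damage group then received white light of 5000 lux for 30 min and was killed after 6 h of recovery, whereas the control group received no such light. A pool of retinae from 3 to 5 mice stood for a condition, dead cells were removed with magnetic beads, and each pool gave 1 library. There was therefore no replicate of either condition, and no p-value is given. Intervals below are 95% intervals of counting error only, since mice and libraries could not be compared within a condition.

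Microglia survey the retina with motile processes and keep that state with a set of genes often called homeostatic, among them the purine receptor P2ry12 and the surface protein Tmem119. When neurons are injured they retract their processes, release chemokines that draw in other leukocytes, release cytokines, and take up debris into lysosomes. In this state the homeostatic genes are known to be turned down.

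Values of genes are spliced plus ambiguous UMIs summed over the microglia of a library and given as counts per 1000000 of them (CPM). The sum was 32726 UMIs for control and 372649 UMIs for light damage microglia, so that the floor of 3 UMIs stood at 91.7 CPM in the control and 8.05 CPM after light damage. A log2 ratio is that of light damage to control CPM with 0.5 UMIs added to each count. For a gene with 0 UMIs in control microglia only a lower bound of the fold, taken against 3 control UMIs, is given. The interval of a control count of 0 reaches 113 CPM, above this floor of 91.7 CPM. Folds against the end of that interval would be smaller than the bounds given. The CPM count all UMIs of a droplet, free RNA of other cells included. By the estimate given below, such RNA made up 57.6% of the control and 5.84% of the light damage UMIs. The bounds do not allow for this, and would be lower if those UMIs were left out of the totals.

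For the genes with the highest ratios in light damage microglia, 3 promoters are shown so that their start regions can be read beside the levels. Ccl3 was the highest ranked gene with an entry in the promoter table, and Il1rn and Csf1 were those of the 10 whose promoters held a match to a searched motif, which was known when they were picked. Each run covers 250 bases before to 50 bases after the start of the gene on its own strand, from RefSeq on GRCm38.p6, and capitals mark the match. The Ccl3 promoter is at chr11:83649329-83649628 (minus strand), the Il1rn promoter at chr2:24336610-24336909 (plus strand, 1 of 3 starts) and the Csf1 promoter at chr3:107760420-107760719 (minus strand).
Ccl3: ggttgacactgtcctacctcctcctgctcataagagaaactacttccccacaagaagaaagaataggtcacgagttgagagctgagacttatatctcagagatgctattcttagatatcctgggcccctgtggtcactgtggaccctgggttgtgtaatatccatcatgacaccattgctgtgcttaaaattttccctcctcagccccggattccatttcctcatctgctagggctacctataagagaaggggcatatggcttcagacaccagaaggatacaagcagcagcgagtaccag
Il1rn: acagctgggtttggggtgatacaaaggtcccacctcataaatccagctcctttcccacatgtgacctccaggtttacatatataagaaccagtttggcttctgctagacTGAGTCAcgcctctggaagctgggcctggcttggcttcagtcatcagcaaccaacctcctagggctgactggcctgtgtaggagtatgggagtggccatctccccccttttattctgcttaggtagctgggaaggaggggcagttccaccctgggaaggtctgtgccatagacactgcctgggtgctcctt
Csf1: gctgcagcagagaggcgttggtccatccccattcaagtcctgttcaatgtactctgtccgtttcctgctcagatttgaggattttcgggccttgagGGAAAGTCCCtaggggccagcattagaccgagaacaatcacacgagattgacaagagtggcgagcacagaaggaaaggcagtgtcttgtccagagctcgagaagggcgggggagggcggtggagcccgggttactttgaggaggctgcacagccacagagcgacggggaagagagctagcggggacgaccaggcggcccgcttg
The match in Il1rn is to the AP-1 motif TGANTCA, with its first base 141 bases before the start. The match in Csf1 is to the NF-kB motif, GGGNN followed by TTTCC, on the opposite strand, with its first base 154 bases before the start. The CRE motif TGACGTCA was searched as well, and the 3 motifs, read on both strands, were in 7.81%, 1.63% and 1.79% of all 32851 promoters in the order AP-1, NF-kB and CRE. Of the 10 genes with the highest ratios 7 had a promoter, and over all their starts 1 gene held AP-1, 2 held NF-kB and 0 held CRE. The 2 with NF-kB were Csf1 and Il1rn, the latter at a start that is not shown. These counts are per gene over up to 3 starts, whereas the percentages are per promoter, so they are not directly comparable. Ccl4, Lilrb4a and Cstb had no entry.

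The label was first checked with microglia genes outside the choice of droplets. Csf1r, the receptor on which microglia depend for survival, had a UMI in 10 of 12 control and 30 of 42 light damage droplets, and P2ry12 in 9 and 17. Sall1, a transcription factor of microglia, was found in 1 and 10. In the other retinal droplets, which leave out pigment epithelium and Müller glia, Tmem119 had 0 UMIs in both libraries, P2ry12 had 1 in the control and 0 after light damage, and Csf1r stood at 0.184 and 0.675 CPM. Pigment epithelium droplets held 0 UMIs of P2ry12 and Tmem119, but Csf1r stood there at 72.7 CPM in the control and 53.6 CPM after light damage, against 672 and 835 CPM in microglia. Astrocyte genes (4 listed) had 0 UMIs, lymphocyte genes (10) had 0 and 2, red blood cell genes (5) had 0 and 2, and endothelial and pericyte genes (8) had 0 and 7 in control and light damage microglia. Neutrophil genes (10) summed to 244 and 96.6 CPM, with 7 of them at 0 in both.

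A monocyte signal was present in 1 droplet. That light damage droplet held 140 of the 141 UMIs of Ly6c2, Ccr2, Plac8 and F13a1, genes that mark blood monocytes and some border macrophages, and all 37 Vcan UMIs. It also held 90.0% of the 461 UMIs of Lyz2, the lysozyme of myeloid cells. The log2 ratio of Lyz2 was 3.17 (1.97 to 5.22) with it and -0.075 without it. The 12 border macrophage genes summed to 0 UMIs in the control and 74 after light damage, of which this droplet held 78.4%, and 7 of them were at 0 in both. No barcode was shared by microglia of the 2 libraries, and 7 barcodes were shared by all kept droplets.

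The libraries differed in depth and in free RNA. Control droplets held 1620 to 10893 UMIs with a median of 2983.5, and light damage droplets 1560 to 40099 with a median of 9393.5. The unspliced share ran from 2.27% to 51.8% (median 15.4%) over control droplets and from 2.06% to 63.9% (median 31.5%) after light damage. Among the 42 light damage droplets 21 were deeper than the deepest control droplet, with an unspliced share of at least 26.9% in each. These 21 held 82.1% of the spliced plus ambiguous UMIs of light damage microglia. Of the light damage droplets 17 were under 10% unspliced and 22 at 30% or more, whereas the control had 3 and 4.

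**Figure D1:**
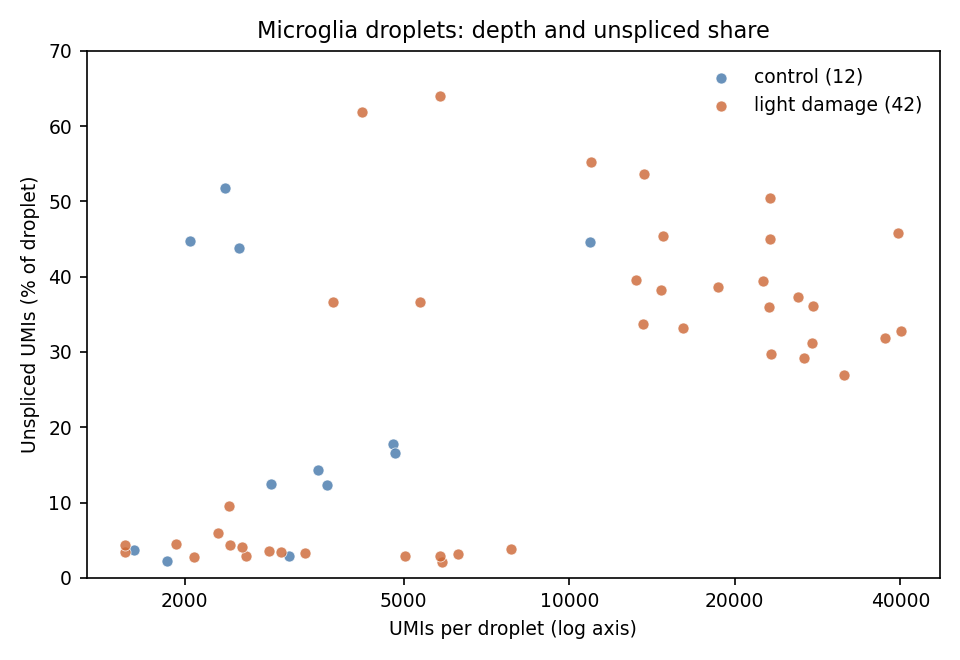
Depth of the microglia droplets. Each point is 1 droplet, with its UMIs on a log axis and the share of unspliced UMIs in percent, blue for the 12 control and orange for the 42 light damage droplets. The 21 light damage droplets to the right of the deepest control droplet (10893 UMIs) all have at least 26.9% unspliced UMIs.

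Rod genes gave an estimate of free RNA, that is RNA released from broken cells into the suspension. The 8 rod genes summed to 62427 CPM (59749 to 65195) in control microglia and 5104 CPM (4877 to 5339) in light damage microglia. If every UMI of 6 rod genes came from free RNA as seen in barcodes under 50 UMIs, free RNA made up 57.6% of the control and 5.84% of the light damage UMIs. This estimate ran from 3.71% to 96.5% (median 47.6%) over control droplets, and from 0.367% to 85.5% (median 3.00%) over light damage droplets. Of the 10 genes with the lowest ratios 8 were rod genes, and the part of free RNA in their ratios was not tested. Pde6g (-4.39), Gngt1 (-4.17), Rcvrn (-4.10), Guca1a (-3.95), Pde6a (-4.12) and Sag (-3.40) belong to phototransduction, and Rom1 (-4.12) to the outer segment disc rim. Tma7, which is associated with translation, was lower with a log2 ratio of -3.59 (-3.89 to -3.28). Its ratio was 0.088 once expected free RNA was subtracted, with an interval from -3.15 upward without an upper end. Hist1h2bc, a histone gene, had 16 control and 6 light damage UMIs.

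Of 3765 genes with at least 20 UMIs over both libraries, 35.6% were higher and 16.3% lower by at least 2-fold in light damage microglia. The light damage sum was 11.4 times the control sum, and a gene with 20 UMIs after light damage and 0 in the control has a log2 ratio of 1.85. With genes at 0 UMIs set at their bound, 15.8% were higher by at least 2-fold and 16.3% lower. The median gene with at least 10 UMIs in each library (507 genes) had a log2 ratio of -0.80. Counts of list genes below are to be read against these shares.

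Chemokines took the 3 highest ranks among the genes with higher levels. Of 16 listed chemokines 10 had at least 20 UMIs, and all 10 were higher by at least 2-fold after light damage, 9 of them also at their bound. Their median log2 ratio was 3.75, or 2.64 with genes at 0 at their bound, against 0.30 and 0.00 over all 5948 genes with at least 10 UMIs. Summed, chemokines stood at 244 CPM in control and 30476 CPM in light damage microglia, and at 13.3 and 31.3 CPM in the other retinal droplets. The control value of the other droplets rests in large part on 1 droplet of 54735 UMIs. That droplet, just outside the choice with 8 Ctss UMIs, held 108 UMIs of the chemokine Ccl6.

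Ccl4 (chr11:83662584-83664683, plus strand, GRCm38), a chemokine for macrophages and T cells, had 0 UMIs in control microglia and 5479 after light damage. Its level was 14703 CPM (14316 to 15097), at least 160-fold higher. Per 10000 UMIs of a droplet it ran from 0 to 904 with a median of 23.8 over the light damage droplets, 31 of which held a UMI, and the droplet with the most held 31.3% of them. The neighbouring Ccl3 (chr11:83647844-83649355, minus strand), a chemokine of the same family, had 2 UMIs in 2 control droplets and 3393 UMIs in 30 light damage droplets. Its level was 61.1 CPM (7.40 to 221) in the control and 9105 CPM (8801 to 9417) after light damage, a log2 ratio of 6.90 (5.36 to 10.27). No control droplet held more than 1 UMI of Ccl3 or Ccl4, so that control and light damage droplets overlapped only at the low end.

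Ccl12, a ligand of Ccr2, had 0 and 1264 UMIs (3392 CPM, 3208 to 3584, at least 37.0-fold higher), spread over 32 light damage droplets. Ccl2, the main chemokine for monocytes, had 0 and 224 UMIs (601 CPM, 525 to 685, at least 6.56-fold higher). Cxcl16, the membrane-bound ligand of Cxcr6, had 0 and 202 UMIs (542 CPM, at least 5.91-fold higher). Ccl9 had 3 and 375 UMIs and a log2 ratio of 3.24 (1.90 to 5.74), with 51.2% of its light damage UMIs in 1 droplet.

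The order was the same at equal depth. When every droplet was thinned to 1500 UMIs, the expected share of microglia with a Ccl4 UMI was 0% in the control and 65.1% after light damage, and for Ccl3 it was 10.3% and 56.4%. Unthinned, 73.8% of light damage microglia held a Ccl4 UMI, compared with 2.15% of the other light damage droplets, whose median depth was 4442 UMIs. The level of Ccl4 was 10.5 CPM in those other droplets, 423 CPM in light damage barcodes under 50 UMIs and 2.38 CPM in such control barcodes. Within the light damage library Ccl4 stood at 16507 CPM (16055 to 16969) in the 21 deepest droplets and at 6420 CPM (5826 to 7058) in the other 21, both above the upper limit of 113 CPM in the control.

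**Figure D2:**
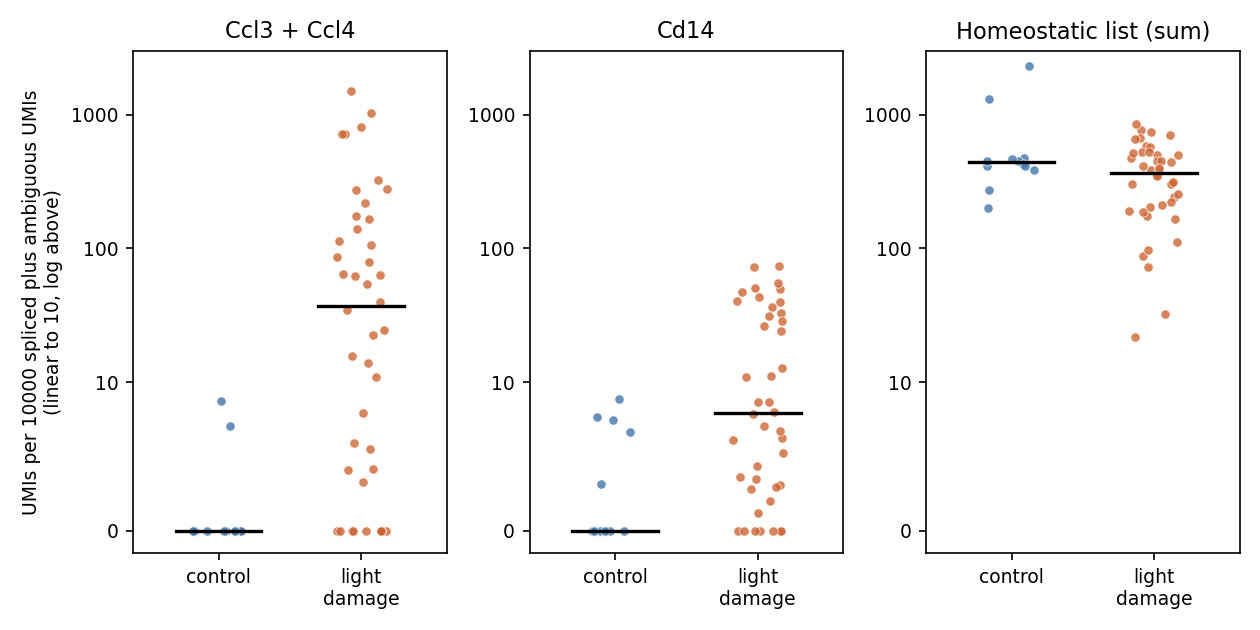
Levels in single microglia. Points are droplets of the control and the light damage library, the black line is the median, and the vertical axis gives UMIs per 10000 spliced plus ambiguous UMIs, linear to 10 and on a log scale above. Ccl3 plus Ccl4 reach 1500 after light damage and 8.76 in the control, and Cd14 reaches 74.2 and 8.87. The homeostatic list, a sum made up mostly of Cst3, overlaps, with medians of 368 after light damage and 439 in the control.

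Light damage microglia differed widely among themselves. Ccl3 plus Ccl4 ran from 0 to 1500 UMIs per 10000 with a median of 37.3. They were absent from 9 of 42 droplets, at least 10 in 27, at least 100 in 14 and at least 1000 in 2. Over these 42 droplets, which share 1 library, the Spearman rank correlation of Ccl3 plus Ccl4 was 0.59 with Cd14, 0.34 with Spp1, 0.28 with the homeostatic list and 0.28 with the number of UMIs. The homeostatic list is taken there as a sum over its genes, most of which is Cst3. Of the 17 light damage droplets with a P2ry12 UMI, 13 also held Ccl3 or Ccl4, a share near that of all light damage droplets (33 of 42).

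Cytokines and growth factors were higher as well. Of 20 listed genes 10 had at least 20 UMIs and all 10 were higher by at least 2-fold, 8 of them also at their bound, with a median log2 ratio of 3.56 (2.07 with genes at 0 at their bound). The interleukin Il1b had 0 control UMIs and 292 after light damage (784 CPM, 696 to 879, at least 8.55-fold higher) in 19 droplets. Il1rn, the antagonist of the interleukin 1 receptor, had 0 and 374 UMIs (1004 CPM, 904 to 1111, at least 10.9-fold higher) in 17 droplets. Csf1, a ligand of Csf1r, had 0 and 370 UMIs (993 CPM, 894 to 1099, at least 10.8-fold higher) in 16 droplets. Tnf, tumour necrosis factor, had 0 and 82 UMIs (220 CPM, 175 to 273, at least 2.40-fold higher) in 17 droplets. Of these Tnf UMIs 80 were in the 21 deepest light damage droplets. The other 21 stood at 30.0 CPM (3.63 to 108), under the control floor of 91.7 CPM, so that no rise of Tnf was shown in them. Pdgfb, a platelet-derived growth factor, had 1 and 240 UMIs and a log2 ratio of 3.82 (1.91 to 9.71).

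Spp1, the secreted matrix protein osteopontin, was high in few droplets. It had 0 control UMIs and 898 after light damage (2410 CPM, 2255 to 2573, at least 26.3-fold higher), and 4 of the 15 droplets with a UMI held 92.0% of them. Per 10000 UMIs it reached 663 in a droplet, while the median was 0. Spp1 was at 1441 CPM (1310 to 1582) in the 21 deepest light damage droplets and at 6855 CPM (6241 to 7514) in the other 21. This direction was shared by Ccl12 (2484 and 7560 CPM) and opposite to that of Ccl4. Of the 441 Spp1 UMIs in the deepest droplets, single droplets held 246 and 185, and of the 457 in the others 256 and 139. The split of Spp1 therefore describes few droplets, and its link to depth was not tested.

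Receptors that sense damage were among the genes with higher levels. Cd14, a co-receptor of Toll-like receptors, had 10 UMIs in 5 control droplets and 901 in 35 light damage droplets, or 306 CPM (147 to 562) against 2418 CPM (2262 to 2581). This is a log2 ratio of 2.91 (2.10 to 4.05), and the gene stood at 2667 CPM in the 21 deepest light damage droplets and at 1275 CPM in the other 21. Tlr2, a Toll-like receptor, had 0 and 141 UMIs (at least 4.13-fold higher), and the scavenger receptor Msr1 had 0 and 134 (at least 3.92-fold higher). Outside the 21 deepest light damage droplets Tlr2 stood at 90.0 CPM (33.0 to 196), under the control floor of 91.7 CPM. C3ar1, the receptor of the complement fragment C3a, had 1 and 302 UMIs with a log2 ratio of 4.15 (2.24 to 10.04), and C5ar1, that of C5a, had 0 and 74 UMIs (at least 2.17-fold higher). Hcar2, a metabolite receptor, had 0 and 179 UMIs (480 CPM, at least 5.24-fold higher). Csf2rb, a shared chain of cytokine receptors, had 1 and 83 UMIs, and its ratio on the log2 scale was 2.29 (0.35 to 8.19). Of the 11 chemokine and cytokine receptors with at least 20 UMIs, 7 were higher (4 at their bound) and 2 lower by at least 2-fold, and of 6 pattern recognition genes 5 were higher (4 at their bound) and 0 lower.

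**Figure D3:**
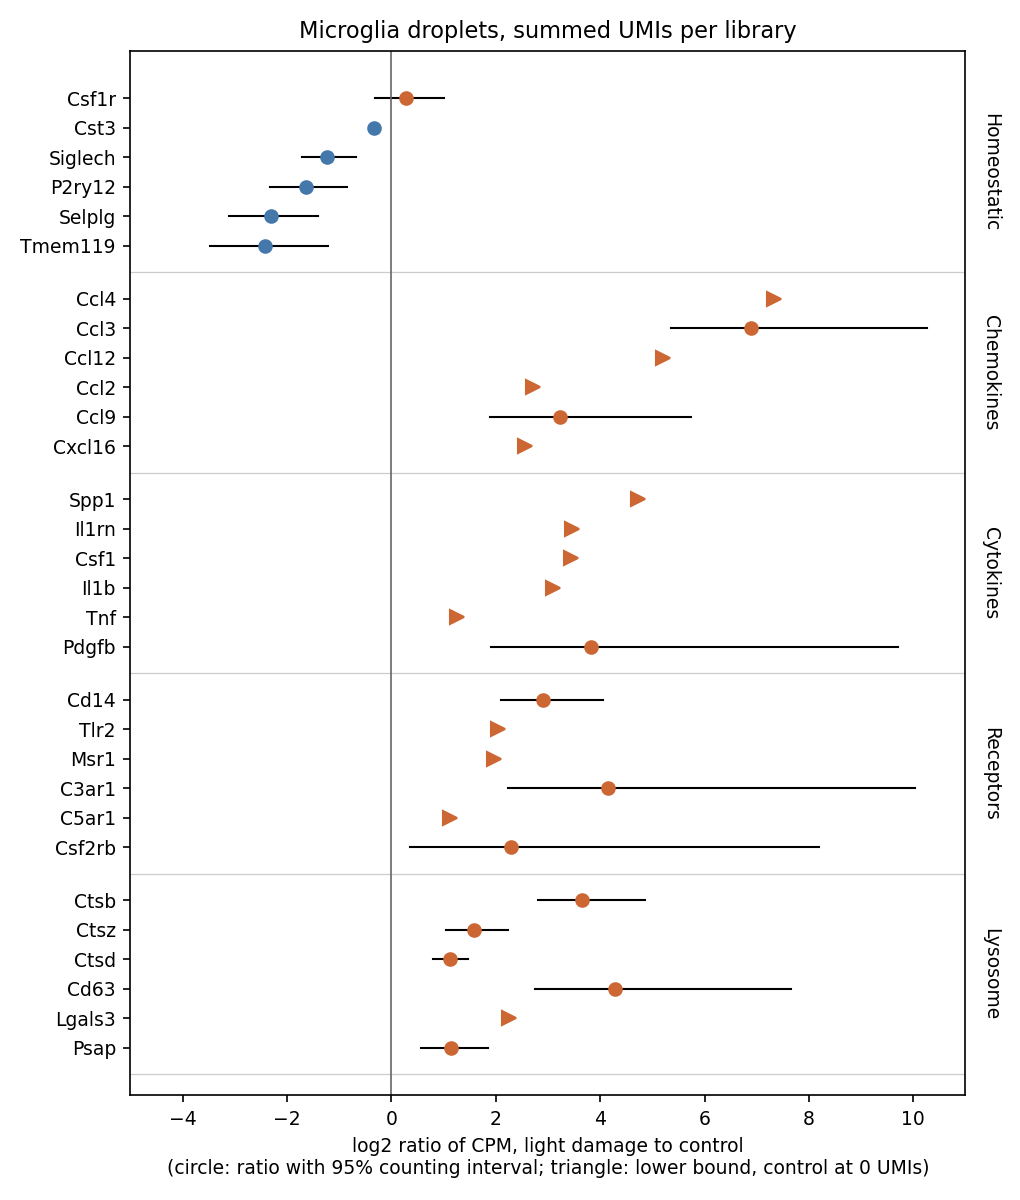
Log2 ratios of light damage to control CPM for 30 genes in 5 blocks. Circles are ratios with the 95% counting interval, orange for values above 0 and blue below, and triangles are lower bounds for genes with 0 control UMIs. Chemokines reach 7.33 as a bound for Ccl4, whereas 4 of the 6 homeostatic genes shown lie below -1, the lowest being Tmem119 at -2.42.

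Genes of lysosomes and of disease-associated microglia, a state described in neurodegeneration, were also higher. Of 20 lysosomal and cathepsin genes 10 were higher and 0 lower by at least 2-fold, at a median log2 ratio of 1.03, which was 0.36 with expected free RNA subtracted and 0.21 with equal weight of every droplet. Ctsb, the protease cathepsin B, had 9 control and 1365 light damage UMIs, or 275 CPM (126 to 522) and 3663 CPM (3471 to 3863), a log2 ratio of 3.66 (2.81 to 4.87). Per 10000 UMIs of a droplet Ctsb had a median of 0.829 in the control and 16.0 after light damage, with highest values of 21.3 and 82.9. Ctsd and Ctsz, further cathepsins, had log2 ratios of 1.12 (0.81 to 1.46) and 1.59 (1.06 to 2.24), and Psap, the precursor of the saposins, 1.14 (0.56 to 1.86), which was -0.33 without the 21 deepest light damage droplets. The galectin Lgals3 had 0 and 164 UMIs (at least 4.80-fold higher). With equal weight of every droplet Ctsd was at 0.28, Ctsz at 0.93 and Psap at 0.15, under 2-fold, while Ctsb was at 2.85. In the other retinal droplets the log2 ratios of Ctsb, Ctsd and Psap were -0.19, -0.06 and -0.03.

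Of 14 disease-associated genes with at least 20 UMIs 12 were higher by at least 2-fold, 10 of them at their bound, and 0 were lower. This list holds Spp1 and Csf1 as well. Cd63, a tetraspanin of late endosomes, had 2 UMIs in 1 control droplet and 555 in 35 light damage droplets, with a log2 ratio of 4.29 (2.75 to 7.66). Cd9, another tetraspanin, had 22 and 1066 UMIs and a log2 ratio of 2.06 (1.48 to 2.77). Lpl, lipoprotein lipase, had 0 and 210 UMIs (at least 6.15-fold higher), Lilrb4a, an inhibitory receptor, 0 and 393 (at least 11.5-fold higher), and Cd52 had a log2 ratio of 1.87 (0.90 to 3.29). Apoe, the lipid carrier apolipoprotein E, had 0 and 491 UMIs, but 81.1% of these were in 1 droplet and its 1318 CPM lay below the 1920 CPM of light damage barcodes under 50 UMIs. Id2, an inhibitor of basic helix-loop-helix factors, had 0 and 391 UMIs (at least 11.4-fold higher), and Cstb, an inhibitor of cathepsins, 0 and 341 (at least 9.98-fold higher) in 38 droplets.

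Genes of the surveying state were lower in part. Of 20 homeostatic genes 9 were lower and 2 higher by at least 2-fold, with a median log2 ratio of -0.58, which became 0.23 when ratios were centred on the median gene and -1.38 when expected free RNA was subtracted. P2ry12 had 21 UMIs in 9 of 12 control droplets and 78 UMIs in 17 of 42 light damage droplets, or 642 CPM (397 to 981) and 209 CPM (165 to 261). This gave a log2 ratio of -1.64 (-2.33 to -0.85), which was -0.84, under 2-fold, when centred on the median gene. Thinned to 1500 UMIs, 55.7% of control and 15.6% of light damage droplets were expected to hold a P2ry12 UMI. Its level was 226 CPM (175 to 285) in the 21 deepest light damage droplets and 135 CPM (61.7 to 256) in the other 21, both below the control.

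Tmem119 had 11 and 24 UMIs and a log2 ratio of -2.42 (-3.47 to -1.21), which was -0.70 without droplets of at least 50% free RNA. Selplg, the ligand of P-selectin, had 18 and 42 UMIs and a log2 ratio of -2.31 (-3.11 to -1.40), and Siglech, a sialic acid-binding receptor, 39 and 192 UMIs and -1.22 (-1.71 to -0.67). The ratio of Siglech was -0.30 with a minimum of 3000 UMIs per droplet and -0.42 when centred on the median gene, both under 2-fold. Csf1r had a log2 ratio of 0.28 (-0.31 to 1.01), which was -1.27 without droplets of 30% unspliced UMIs or more. Cst3, cystatin C and the most abundant gene of the list, stood at 40182 CPM (38039 to 42414) and 31899 CPM (31328 to 32477), a log2 ratio of -0.33 that was 0.47 when centred on the median gene. The whole homeostatic list summed to 53444 and 42700 CPM, so that a sum over the list is mostly Cst3. Among 20 further receptors and signalling genes of microglia 6 were higher (5 at their bound) and 1 lower by at least 2-fold. The 1 lower gene was Ly86, a partner of the Toll-like receptor homologue Cd180, with 3056 CPM (2486 to 3716) and 1028 CPM (927 to 1136) and a log2 ratio of -1.58 (-1.89 to -1.24), or -0.77 when centred on the median gene. Fcer1g, an Fc receptor adaptor, had a log2 ratio of 0.81 (0.33 to 1.39), and Aif1, which encodes Iba1, one of -0.21 (-0.99 to 0.78), or 0.59 when centred.

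Genes that respond to NF-kB had a median log2 ratio of 2.03, which was 0.25 with genes at 0 at their bound. Of 15 such genes 10 were higher (6 at their bound) and 1 lower. Gadd45b, a stress sensor, had 0 and 136 UMIs (at least 3.98-fold higher), and Plaur, the urokinase receptor, 0 and 98 (at least 2.87-fold higher). Cd83 had 1 and 143 UMIs with a log2 ratio of 3.07 (1.15 to 8.96), and Nfkbia, the inhibitor of NF-kB, 2 and 116 UMIs with 2.03 (0.46 to 5.41), or 0.87 without droplets of 50% free RNA or more. Bcl2a1b, a survival gene, had a log2 ratio of 2.92 (1.37 to 6.29), but it has near-identical copies and its count is uncertain. The 1 lower gene, Sod2, a mitochondrial superoxide dismutase, had 10 and 54 UMIs and a log2 ratio of -1.13 (-2.06 to 0.06), or -0.15 with equal weight of every droplet.

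Immediate early genes, which encode transcription factors made within minutes of a stimulus, had a median log2 ratio of 1.30 in microglia (0.50 with genes at 0 at their bound), with 10 of 16 higher (8 at their bound) and 0 lower. This median was -0.27 without the 21 deepest light damage droplets, where Egr1 stood at -1.03, Jun at -1.39 and Junb at -0.27. Fos had a log2 ratio of 2.12 (0.18 to 8.02) in microglia, or 0.96 without droplets of 50% free RNA or more, and 5.33 (4.95 to 5.76) in the other retinal droplets. Junb had 1.06 (0.34 to 1.99) and 4.64 (4.45 to 4.84), Jun 1.36 (0.13 to 3.42) and 4.31 (4.16 to 4.48), and Egr1 1.56 (0.64 to 2.87) and 5.01 (4.74 to 5.30). Before the ratio, control levels differed between the classes. Junb stood at 428 CPM in control microglia and 20.6 CPM in the other control droplets, against 920 and 515 CPM after light damage. Its control level in microglia rests on 14 UMIs in 4 of 12 droplets, of which 1 droplet held 7. Atf3, a stress-induced factor, had 0 and 166 UMIs in microglia (at least 4.86-fold higher) and a log2 ratio of 2.50 (2.25 to 2.76) in the other droplets.

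Genes of JAK-STAT signalling, which interleukin 6 type cytokines switch on, were set beside the other droplets in the same way. Stat3, its transcription factor, had a log2 ratio of 0.38 (-0.89 to 2.45) in microglia, from 122 to 177 CPM, and 3.80 (3.60 to 4.00) in the other droplets, from 20.0 to 278 CPM. All 4 control UMIs of Stat3 in microglia came from 1 droplet, so that its control level rests on that droplet and would be 0 without it, and its ratio was -0.85 with equal weight of every droplet. Cebpd, a Stat3 target, had 0.00 (-1.69 to 3.41) in microglia and 5.11 (4.63 to 5.69) in the other droplets. Socs3, the feedback inhibitor, had 0 and 94 UMIs in microglia (at least 2.75-fold higher) and 7.18 (5.27 to 13.07) in the other droplets. Of its UMIs in microglia 91 were in the 21 deepest light damage droplets. The remaining light damage microglia stood at 45.0 CPM (9.28 to 132), under the control floor of 91.7 CPM. Of 7 JAK-STAT genes with at least 20 UMIs in microglia 5 were higher (3 at their bound) and 0 lower. Mt1, a metallothionein, had 1.94 (-0.02 to 7.84) in microglia and 3.19 (3.04 to 3.35) elsewhere. The difference between the classes was not tested, since each rests on 1 library per condition.

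**Figure D4:**
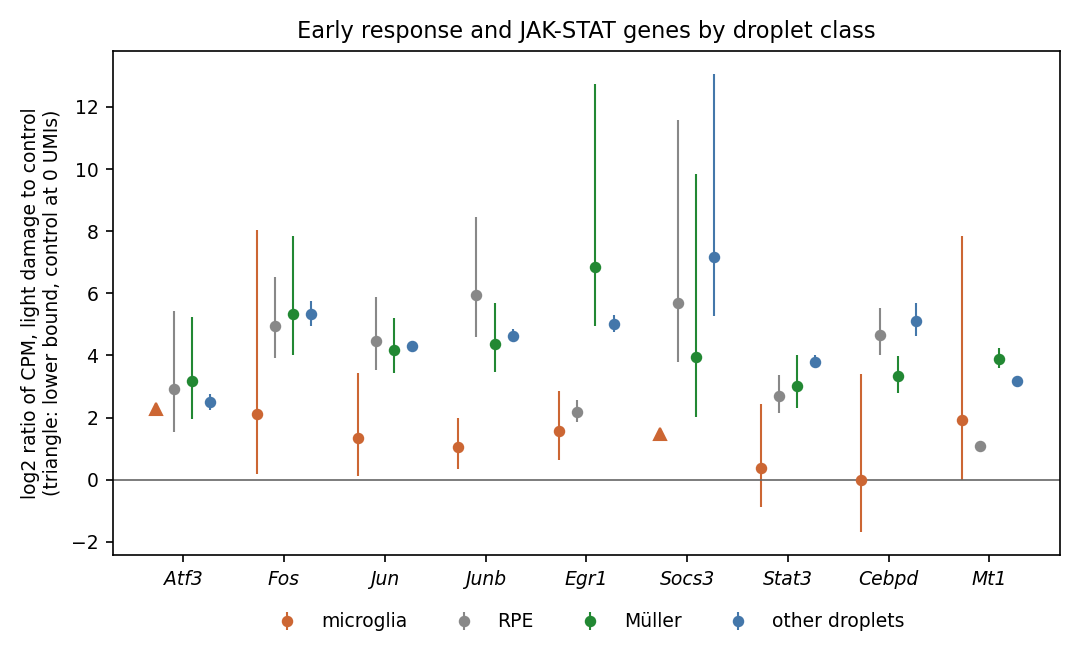
Early response and JAK-STAT genes by droplet class. Points are log2 ratios of light damage to control CPM with 95% counting intervals for microglia (orange), pigment epithelium (RPE, grey), Müller glia (green) and other droplets (blue), and orange triangles are lower bounds for microglia with 0 control UMIs. For Fos the value is 2.12 in microglia and 5.33 in other droplets, and for Stat3 0.38 and 3.80.

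Of 16 actin and motility genes 11 were higher (10 at their bound) and 0 lower, with Actg1, cytoplasmic gamma actin, at 2.25 (1.52 to 3.22) and Actb, cytoplasmic beta actin, at 0.80 (0.61 to 1.00). Of 9 antigen presentation genes 3 were higher (2 at their bound) and 1 lower. Cd86, a co-stimulatory ligand for T cells, had 0 and 283 UMIs (759 CPM, 674 to 853, at least 8.28-fold higher), and H2-K1, a class I molecule, had a log2 ratio of 2.27 (1.06 to 4.33), while the class I partner B2m had 0.77 (0.28 to 1.35), which was -0.23 without droplets of 50% free RNA or more. Of 13 phagocytosis genes 6 were higher (3 at their bound) and 2 lower, with the Fc receptor Fcgr3 at 2.04 (0.68 to 4.55), or 0.93 without droplets of 30% unspliced UMIs or more. Mertk, which binds bridged apoptotic cells, had 0 and 53 UMIs (at least 1.55-fold higher). Outside the 21 deepest light damage droplets Mertk stood at 90.0 CPM (33.0 to 196), under the control floor of 91.7 CPM.

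Of 12 genes of oxidative stress and iron 7 were higher (4 at their bound) and 0 lower, and the iron store genes Fth1 and Ftl1 had log2 ratios of 0.92 (0.69 to 1.16) and 1.45 (1.05 to 1.92), of which that of Ftl1 was 0.91 without droplets of 50% free RNA or more. Txnrd1, a thioredoxin reductase, had 0 and 175 UMIs (at least 5.12-fold higher). Of 8 heat shock genes 5 were higher and 0 lower, with Hsp90ab1 at 2.01 (1.41 to 2.76), or 0.99 without droplets of 50% free RNA or more. Genes of hypoxia and glycolysis were split, with 3 of 13 higher and 5 lower. Hif1a, the oxygen-regulated factor, had a log2 ratio of 2.31 (0.96 to 4.82), whereas the glycolytic enzyme genes Gapdh and Pkm had -1.26 (-1.67 to -0.81) and -1.49 (-1.99 to -0.93), which became 0.21 and 1.07 once expected free RNA was subtracted. Of 4 interferon-responsive genes with at least 20 UMIs 3 were higher, 1 of them at its bound, and 0 lower. Ribosomal protein genes (79) had 2 higher and 1 lower, with a median of -0.22.

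Droplets just outside the choice were few. With 3 or 4 marker UMIs there were 0 control and 4 light damage droplets, and with 5 to 8 marker UMIs inside the choice 0 and 4. At least 5 marker UMIs from 1 gene were held by 1 control and 3 light damage droplets. The control droplet had 54735 UMIs with 8 Ctss UMIs, and it held 134 UMIs of Tnf, 108 of Ccl6, 109 of Lgals3, 213 of Plac8 and 4981 of Fth1, the heavy chain of ferritin, with 0 of Il1b, Ccl3 and Ccl4. The 3 light damage droplets had 13 to 37 Tyrobp UMIs, and their Il1b counts were 0, 41 and 24. In the control 2 droplets were left out for pigment epithelium RNA, after light damage 0.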

How the data were processed

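Retinal single-cell libraries, 1 per condition, were made with 10x Genomics chemistry. The deposited values are whole-number UMI counts per barcode and gene, without normalization or any filter on barcodes, which the authors split into spliced, unspliced and ambiguous counts with alevin-fry. The submitters' processing notes name Cell Ranger 7.0.1, Salmon 1.10.1, alevin 0.8.1 and the build mm10. Filters of the authors on empty droplets, doublets and ambient RNA came later and are not in these files. Genes carry Ensembl IDs, of which 32235 of 32285 were named from GENCODE vM21 on GRCm38. The control library held 30605284 UMIs over 542576 barcodes and the light damage library 54413601 over 944146. These depths, and 32726 and 372649 UMIs in microglia, set the precision.

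The members and gene lists (461 of 464 genes matched, 34 lists) were chosen with earlier results of these data known. Genes named singly are the 10 highest and 10 lowest ratios among genes with at least 20 UMIs, ordered by the end of the interval nearest 0, with UMIs in at least 5 droplets of the library where they are higher and without Xist, Tsix and Y-linked genes, and up to 6 genes a list or the markers. Which of a list's genes are given was chosen after their values were seen. CPM have exact Poisson intervals, ratios the exact conditional binomial interval and shares the exact Clopper-Pearson interval, all at 95% and of counting error only. A fold against 0 UMIs uses 3 UMIs. Thinning to 1500 UMIs is hypergeometric. Other droplets are kept droplets that are neither microglia, pigment epithelium (at least 10 UMIs of 3 genes) nor Müller glia (at least 8 UMIs of 6 genes from at least 3 of them). No doublets were removed in the main analysis. In the alternative without the highest Scrublet scores (0.8% per 1000 droplets) 0 control and 1 light damage microglia were left out. Ratios and intervals were tested on simulated counts. The scripts ran in Python 3.11.15 with scanpy 1.11.5 for doublet scores, scipy 1.17.1 for intervals, matplotlib 3.10.9, pandas 2.3.3 and numpy 2.4.6. Some genes of the lists are not reported here by name.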

Additional observations from a re-analysis of the deposited data

Results flagged for a closer look

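For 7 genes the log2 ratio in microglia and that in the other retinal droplets were past 2-fold in opposite directions, and this difference between the classes was not tested. Tnf was at 3.86 in microglia and -5.56 in the other droplets, Ccl6 at 2.79 and -1.98, Lgals3 at 4.85 and -2.59, and Capg, an actin-capping protein, at 3.75 and -2.77. The values of Tnf, Lgals3 and Capg in microglia are ratios with 0.5 UMIs added to a control count of 0. In these 4 genes the same control droplet held most of the UMIs of the other control droplets, with 99.3% for Tnf, 98.2% for Ccl6, 94.8% for Lgals3 and 100% for Capg. It is the droplet of 54735 UMIs with 8 Ctss UMIs, just outside the choice of microglia. The ratios of these 4 genes in the other droplets therefore rest on that droplet. Actg1 was at 2.25 and -1.28, and 9.18% of its other control UMIs were in 1 droplet. Selplg was at -2.31 in microglia and 1.78 in the other droplets, where it had 4 control and 29 light damage UMIs. H2-DMa, an antigen-loading gene, was at -1.92 and 1.43, with 6 and 19 UMIs in microglia.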

How the results depend on the processing

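No paired analysis was possible because each condition has 1 library. The 1342 genes higher and 615 lower by at least 2-fold became 371 and 180 without droplets of 30% unspliced UMIs or more, 186 and 134 without droplets above the control maximum of UMIs, 2069 and 240 centred on the median gene, 533 and 163 with a minimum of 50 UMIs, 2172 and 4911 with a minimum of 1 UMI, and 807 and 187 at 4-fold. With genes at 0 UMIs at their bound 594 were higher, with unspliced UMIs included 1023 were lower, and without the top droplet of each gene 230 were lower. Microglia numbered 6 in the control with a minimum of 3000 UMIs or without droplets of 50% free RNA or more, and 20 and 21 after light damage without droplets of 30% unspliced UMIs or above the control maximum. The homeostatic median of -0.58 became -1.59 without droplets of 30% unspliced UMIs or more, -1.38 with free RNA subtracted, 0.23 centred on the median gene and -1.56 with equal weight of every droplet. The chemokine median of 3.75 became 4.90 without droplets above the control maximum, 2.94 with free RNA subtracted, 4.55 centred, 2.64 with genes at 0 at their bound and 4.65 with equal weight. Signs turned without droplets above the control maximum for the immediate early list (-0.27), Lyz2 (-1.87), Psap (-0.33), Egr1 (-1.03), Junb (-0.27), Jun (-1.39), Ier5 (-0.13) and Runx1 (-0.24). They turned without droplets of 30% unspliced UMIs or more for the phagocytosis list (-0.091) and Jun (-0.98), without droplets of 50% free RNA or more for Gapdh (0.16) and the cell cycle list (-0.029), without the droplet rich in monocyte genes for Lyz2 (-0.075), and with equal weight for Junb (-0.053). With free RNA subtracted they turned for Tma7 (0.088), Gapdh (0.21), Pkm (1.07) and the glucocorticoid target list (-0.27). For each of these single genes the interval of the turned value held 0. Under 2-fold signs also turned, among them those of B2m (-0.23 without droplets of 50% free RNA or more), Stat3 (-0.85 with equal weight), Csf1r (-1.27 without droplets of 30% unspliced UMIs or more) and Cst3 (0.47 centred). The cause was not tested. The alternatives without the droplet rich in monocyte genes, without the deeper droplets, with equal weight and with genes at 0 at their bound were added after seeing the data. Depth limits the control most, since 1 control UMI stands for 30.6 CPM there. The interval of a control count of 0 reaches 113 CPM, above the floor of 91.7 CPM used for bounds.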
